A study of Homo sapiens with 4 samples.

Results

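The ligands through which NK cells recognise stressed or transformed cells were followed in HepG2, a human hepatocellular carcinoma cell line, as 6 genes chosen by symbol out of 24462 symbols counted. The 6 genes were ULBP1, ULBP2, ULBP3, MICA and MICB, which encode ligands of the receptor NKG2D, and PVR, which encodes a ligand of the receptor DNAM1. The set was put together with results of these data in view, because ULBP1 was among the firmest increases in the knockdown library. The ratios of CDK4/6 KD to scrambled siRNA are therefore given as a description. The study compared HepG2 cells that received DMSO, the solvent control, with cells that received PD0332991 (palbociclib), an inhibitor of the kinases CDK4 and CDK6. It also compared cells transfected with scrambled siRNA with cells transfected with siRNA against CDK4 and CDK6 (CDK4/6 KD). Each of the 4 conditions was sequenced as 1 library, so the differences below could not be checked against replicates and carry no p-value. The sources used here do not give the dose of the inhibitor or how long after treatment or transfection the cells were harvested.

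NKG2D, encoded by KLRK1, is an activating receptor of NK cells and of cytotoxic T cells. Its ligands are distant relatives of MHC class I molecules that most healthy cells display sparsely and that stress, DNA damage, viral infection or transformation can induce. MICA and MICB are transmembrane proteins encoded within the MHC region, and the ULBP proteins, encoded by a separate gene cluster, include members that are held by a glycosylphosphatidylinositol (GPI) anchor. PVR, also called CD155, is an adhesion molecule of the nectin family that activates DNAM1 and is also bound by the inhibitory receptor TIGIT. NECTIN2, also called CD112, is the other main DNAM1 ligand. Metalloproteases can shed MICA and MICB from the cell surface, so mRNA and surface protein need not move together, and the libraries hold mRNA only.

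Libraries were made with a QuantSeq 3′ kit, which primes on the poly(A) tail and reads the 3′ end of a transcript. Levels are therefore given as counts per 1000000 reads (CPM) after TMM normalization, with no division by transcript length. Total counts ran from 8983848 to 11176880 reads per library, which made a count of 3 reads, taken as the floor of detection, worth 0.265 to 0.329 CPM. The 10 hepatocyte markers were above the floor in every library and summed to between 17440 and 22299 CPM. The 12 markers of NK and T cells summed to between 1.94 and 4.67 CPM, with 6 to 8 of them at 0. The receptor genes themselves were at or near the floor, with 2 to 4 reads of KLRK1 and at most 1 read of CD226, which encodes DNAM1. Both siRNA targets were lower after CDK4/6 KD, with CDK4 at 71.9 CPM against 354 with scrambled siRNA (fold change: 0.203) and CDK6 at 129 CPM against 536 (fold change: 0.241). The 17 keratinocyte markers summed to 217 CPM with DMSO, 242 with PD0332991, 376 with scrambled siRNA and 214 in CDK4/6 KD. SFN weighed heavily in these sums, with 1221, 563, 3266 and 1152 reads. Of the 11 keratinocyte markers past the filter of 10 reads, 8 were at least 2-fold higher with PD0332991 than with DMSO, beside 7.49% of genes. Their median log2 ratio was 3.29, and KRT5 went from 2 to 113 reads. With scrambled siRNA against DMSO, 7 of 10 were at least 2-fold higher, beside 5.30%, with a median of 1.44. In CDK4/6 KD against scrambled siRNA, 3 of 10 were at least 2-fold higher and 1 lower, with a median of -0.06. Whether these differences between libraries bear on the ligand genes was not tested.

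Of the 6 ligand genes, 4 had reads above the floor in at least 1 library and 2 had no read in any library. Where read, the levels differed widely among the genes, with PVR, MICB and MICA between 26.9 and 115 CPM and ULBP1 between 0.0935 and 3.98 CPM. In these bulk libraries a change in the number of cells that transcribe a gene and a change in RNA per cell cannot be told apart.

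The promoter windows of ULBP1, MICA and MICB are shown because these genes encode the detected NKG2D ligands. Each holds 250 bases before and 50 bases from the annotated transcription start, printed 5′ to 3′ on the strand of the gene, from the RefSeq annotation of GRCh38.p14. Capitals mark matches to the Sp1 motif GGGCGG and to the heat shock element written GAANNTTC, on either strand. The windows lie at chr6:149963693-149963992 for ULBP1, chr6:31403345-31403644 for MICA and chr6:31497895-31498194 for MICB, all on the plus strand.
ULBP1: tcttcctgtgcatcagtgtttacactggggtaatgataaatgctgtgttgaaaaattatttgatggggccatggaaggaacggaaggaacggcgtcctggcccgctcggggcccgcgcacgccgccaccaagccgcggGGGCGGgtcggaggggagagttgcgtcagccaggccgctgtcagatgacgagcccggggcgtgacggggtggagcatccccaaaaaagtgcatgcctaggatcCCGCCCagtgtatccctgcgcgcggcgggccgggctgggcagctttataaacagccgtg
MICA: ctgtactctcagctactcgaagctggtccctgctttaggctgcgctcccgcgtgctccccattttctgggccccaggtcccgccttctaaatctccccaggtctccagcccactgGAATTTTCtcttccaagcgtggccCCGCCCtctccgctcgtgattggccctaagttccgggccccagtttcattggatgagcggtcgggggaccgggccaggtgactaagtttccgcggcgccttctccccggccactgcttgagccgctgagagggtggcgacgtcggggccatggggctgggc
MICB: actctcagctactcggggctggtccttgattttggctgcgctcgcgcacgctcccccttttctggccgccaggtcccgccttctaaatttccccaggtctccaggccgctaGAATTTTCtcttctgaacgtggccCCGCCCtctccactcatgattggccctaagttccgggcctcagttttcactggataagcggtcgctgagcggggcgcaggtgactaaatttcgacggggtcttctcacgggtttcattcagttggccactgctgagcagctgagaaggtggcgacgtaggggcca

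The MICA and MICB windows were alike, with 77.8% identity over their alignment, while the other 14 pairs among the 6 genes shared 41.8% to 50.2%. Both held 1 heat shock element, the binding sequence of heat shock factors, 135 bases before the start in MICA and 139 bases before it in MICB. Both also held 1 Sp1 motif, 111 and 115 bases before the start. The ULBP1 window held Sp1 motifs 112 and 9 bases before the start, and no heat shock element. Of all 35116 promoter windows, 6.77% held the heat shock element and 45.0% the Sp1 motif. Other motifs were searched on both strands in the same way. The element of the stress factor ATF4, written TGATGNAA, occurred in 3.62% of all windows and, among these 6 genes, in ULBP2. An E2F motif in any of the forms TTTGGCGC, TTTCCCGC, TTTGCCGC or TTTCGCGC occurred in 3.31% of all windows and also in ULBP2. The cyclic AMP response element, written TGACGTCA, was in 1.85% of all windows, the AP-1 motif, written TGACTCA or TGAGTCA, in 4.95%, the E-box, written CACGTG, in 7.26%, and the NF-kappaB motif in 5.91%. None of these last 4 was in a window of the 6 genes. The ULBP3 window held 6 Sp1 motifs, and the PVR window held no match to any motif searched. A match is a description of the letters only.

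**Figure D1:**
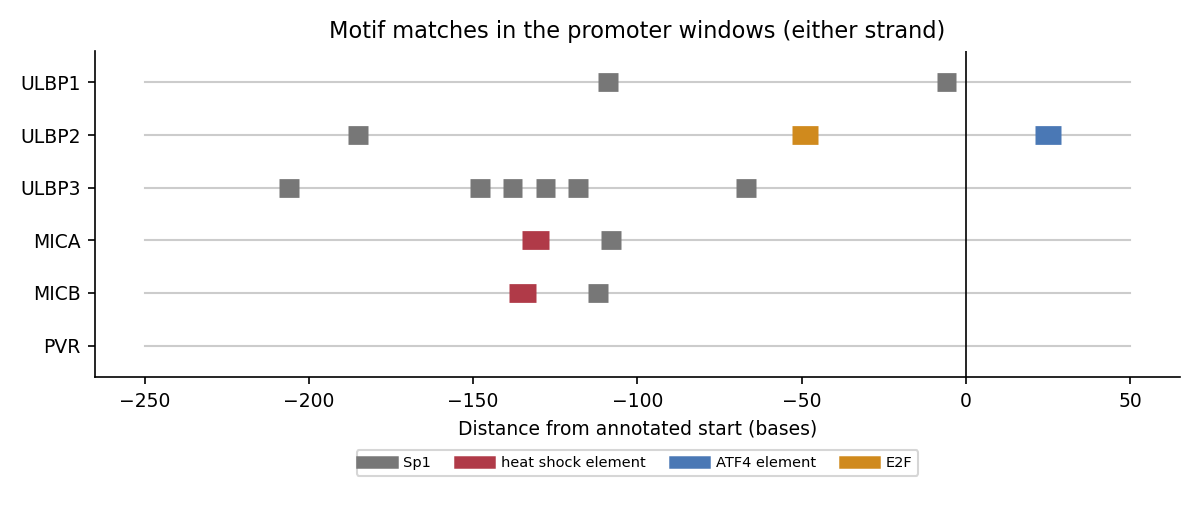
Positions of motif matches (coloured blocks) in the promoter windows of the 6 genes, with distance from the annotated start in bases on the horizontal axis. The heat shock elements of MICA and MICB sit at 135 and 139 bases before the start, and PVR has no match.

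ULBP1, a GPI-anchored NKG2D ligand, was the gene on which the set was selected. It had 3 reads with DMSO, 5 with PD0332991, 1 with scrambled siRNA and 45 in CDK4/6 KD, or 0.328, 0.549, 0.0935 and 3.98 CPM. The first 3 libraries were at or close to the floor, and the CDK4/6 KD library alone stood clearly above it, with a Poisson 95% interval of 2.90 to 5.32 CPM. The ratio of CDK4/6 KD to scrambled siRNA was 42.5, with an exact 95% interval from the split of the reads of 7.26 to 1717, which covers counting error only. Its width comes from the single read in the control. With 0.5 reads, scaled to library size, added to each count, the ratio was 4.86 on the log2 scale. Against the DMSO library the ratio of the same 45 reads was 12.1 (3.89 to 60.9).

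Ranked by the lower end of that interval among the 13617 genes with at least 10 reads in either siRNA library, ULBP1 was at position 5. RTN4RL2, just before it, had 75 reads against 3 and a lower end of 7.78, and MEF2B, just after it, had 135 reads against 9 and a lower end of 7.25. These neighbours are values of the same measure that selected ULBP1. Even at its highest, ULBP1 was a weakly read gene, at position 11040 of 16591 genes with reads in the CDK4/6 KD library. After PD0332991, its 5 reads against 3 with DMSO were under the 10 reads asked of a gene in either library, and the ratio of 1.67 had an interval of 0.325 to 10.8. These reads were thus compatible with any ratio in that interval, no change of ULBP1 with the inhibitor among them, while larger ratios lay outside it. The Poisson interval of ULBP1 with PD0332991, 0.178 to 1.28 CPM, lay below that in CDK4/6 KD, 2.90 to 5.32 CPM. The level in CDK4/6 KD is among the values that selected ULBP1, and neither level is set against its control here. Nothing is therefore read from these levels. The ratio intervals of the arms overlapped, between 7.26 and 10.8, and whether the arms differ for ULBP1 was not tested.

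The genes whose pattern over the 4 libraries was nearest to that of ULBP1, out of 3266 genes of similar mean level, were PDZK1IP1, TMEM151A and CYP7A1. Likeness was the Euclidean distance between centred log2 CPM values, at 0.733, 0.762 and 0.799. PDZK1IP1 had 10, 19, 6 and 97 reads with DMSO, PD0332991, scrambled siRNA and CDK4/6 KD. CYP7A1, which encodes the rate-limiting enzyme of bile acid synthesis from cholesterol, had 3, 9, 1 and 79 reads in the same order. With 4 libraries the distance is a description of these libraries.

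ULBP2 and ULBP3, further ULBP ligands of NKG2D, had no read in any of the 4 libraries. A count of 0 allowed a level of up to 0.326 to 0.405 CPM by the exact Poisson limit. Of 426 windows of 75 bases in the last 500 bases of the transcript, 20.2% of those of ULBP3 also occurred somewhere in a transcript of RAET1K or ULBP1, and 1.6% of those of ULBP2 in one of RAET1L. For ULBP1 that stretch lay outside the last 500 bases of its longest transcript, and no window in the last 500 bases of ULBP1, MICA, MICB or PVR occurred in another gene. The remaining genes of the ULBP family were read no better, with at most 1 read of RAET1E or RAET1G in a library and none of RAET1L. ULBP1 was thus the only one of these 6 ULBP and RAET1 genes above the floor in any library.

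MICA had 246 reads with DMSO, 255 with PD0332991, 692 with scrambled siRNA and 523 in CDK4/6 KD, which is 26.9, 28.0, 64.7 and 46.2 CPM. The siRNA libraries were both above the other two, and DMSO and PD0332991 were close to each other. MICA was lower in CDK4/6 KD than with scrambled siRNA (fold change: 0.715, interval 0.637 to 0.802) and nearly equal with PD0332991 and DMSO (fold change: 1.04, interval 0.870 to 1.24). Between the controls, it was 2.40-fold higher with scrambled siRNA than with DMSO (2.07 to 2.79). That difference between control libraries was larger than the difference within either arm.

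MICB, the closest relative of MICA, had 541, 347, 1146 and 1056 reads in the same order, or 59.2, 38.1, 107 and 93.3 CPM. It was the most counted NKG2D ligand in all 4 libraries. It was slightly lower in CDK4/6 KD than with scrambled siRNA (fold change: 0.871, interval 0.800 to 0.948) and lower with PD0332991 than with DMSO (fold change: 0.644, interval 0.561 to 0.738). The control with scrambled siRNA was 1.81-fold above DMSO (1.63 to 2.01), again more than either treated library differed from its own control. The genes nearest to MICB in pattern, out of 6867 of similar level, included SGK1 (distance 0.155) and MATN3 (0.156), and MICA was at position 73 (0.535).

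**Figure D2:**
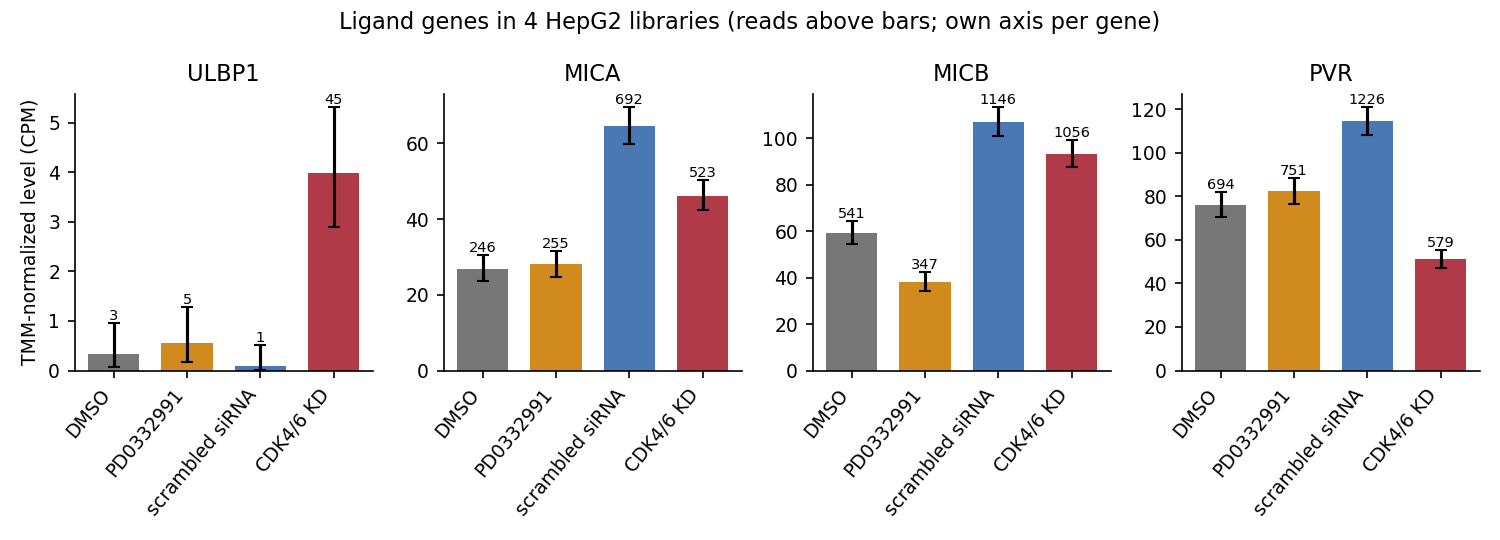
Levels of the 4 ligand genes with reads above the floor (vertical axis, TMM-normalized CPM, one axis per gene) in the 4 libraries, with exact 95% Poisson intervals and the read count above each bar. ULBP1 stands above the floor in CDK4/6 KD with 45 reads, and MICA and MICB are higher in both siRNA libraries than in the DMSO and PD0332991 libraries.

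MICA made up 31.3% of the MICA and MICB reads with DMSO (exact binomial interval 28.0% to 34.6%) and 42.4% with PD0332991 (38.4% to 46.4%). It made up 37.6% with scrambled siRNA (35.4% to 39.9%) and 33.1% in CDK4/6 KD (30.8% to 35.5%). The intervals of DMSO and PD0332991 did not overlap, with the larger MICA share after the inhibitor, while those of scrambled siRNA and CDK4/6 KD just met. The 3 detected NKG2D ligands, ULBP1, MICA and MICB, summed to 86.5 CPM with DMSO, 66.7 with PD0332991, 172 with scrambled siRNA and 143 in CDK4/6 KD. ULBP1 contributed 2.77% of that sum in CDK4/6 KD and 0.0544% with scrambled siRNA, and the sum in CDK4/6 KD was below that with scrambled siRNA but above that with DMSO. In the annotation, the 3′ end of MICA overlaps the span of the non-coding gene HCP5 on the same strand. HCP5, named after its values were seen, had 13, 33, 25 and 78 reads, far fewer than MICA. It differed in the other direction in CDK4/6 KD (ratio of CDK4/6 KD to scrambled siRNA 2.91, interval 1.86 to 4.83). How reads where the gene spans overlap were counted is not stated in the sources used here. Whether the overlap bears on the counts of MICA was not tested.

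PVR, the DNAM1 ligand of the set, had 694 reads with DMSO, 751 with PD0332991, 1226 with scrambled siRNA and 579 in CDK4/6 KD, or 76.0, 82.5, 115 and 51.2 CPM. The scrambled siRNA library was the highest and the CDK4/6 KD library the lowest. PVR was lower in CDK4/6 KD than with scrambled siRNA (fold change: 0.447, interval 0.404 to 0.493), and it was also lower there than with DMSO (fold change: 0.674, interval 0.602 to 0.753). With PD0332991 it was close to DMSO (fold change: 1.09, interval 0.978 to 1.21). With scrambled siRNA it was 1.51-fold above DMSO (1.37 to 1.66).

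Of 6653 genes of similar level, those nearest to PVR in pattern were LGALS8, DND1 and ADAM17, at distances of 0.0368, 0.0529 and 0.0813. LGALS8, which encodes a galectin, had 1183, 1255, 2050 and 997 reads with DMSO, PD0332991, scrambled siRNA and CDK4/6 KD. ADAM17, which encodes a sheddase of surface proteins, had 258, 259, 448 and 211 reads. The 3′ end of PVR overlaps the spans of CEACAM19 on the same strand and of an antisense gene in the annotation. Whether the counting used strand is not stated in the sources used here. CEACAM19, named after its values were seen, had 8, 17, 4 and 29 reads.

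**Figure D3:**
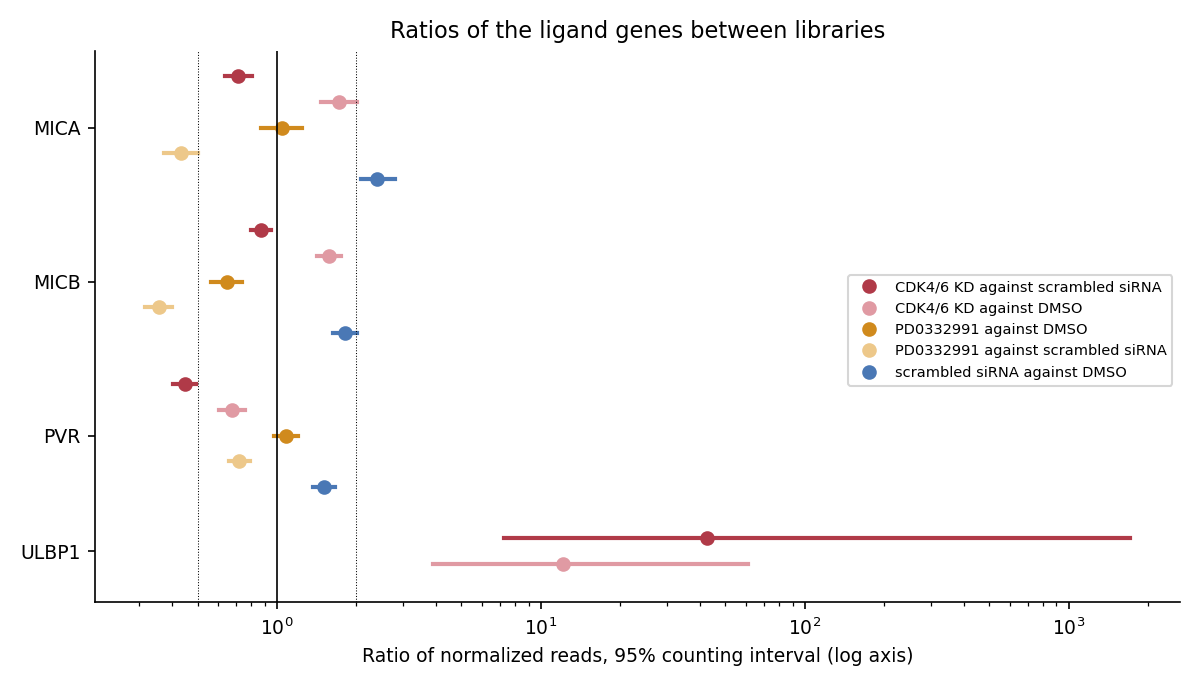
Ratios of normalized reads between libraries (horizontal axis, log scale) with exact 95% counting intervals for MICA, MICB, PVR and ULBP1, and dotted lines at 2-fold. Ratios against the other arm's control are drawn in pale colours, and for MICA and MICB they fall on the other side of 1 in CDK4/6 KD.

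In CDK4/6 KD against scrambled siRNA, 4 of the 6 genes had at least 10 reads in either library, ULBP1 only through the knockdown library. At 2-fold, 1 of them was higher, ULBP1, beside 9.19% of the 13617 genes past that filter, and 1 was lower, PVR, beside 7.62%. By whether the interval left out a ratio of 1, 1 was above it beside 30.0% of genes and 3 were below it beside 31.9%. The set was selected on this contrast, and nothing is read from these counts. After PD0332991, 3 genes were past the filter and none was called at 2-fold, beside 7.49% of 13443 genes higher and 7.06% lower. By the interval, none was above 1 beside 28.1% of genes, and 1, MICB, was below 1 beside 28.6%. Between scrambled siRNA and DMSO, 3 genes were past the filter and MICA alone was called at 2-fold, as higher, beside 5.30% of 13303 genes higher and 6.64% lower. By the interval all 3 were above 1, beside 28.3% of genes, and none was below 1, beside 28.0%. The median log2 ratio of all genes was -0.0036, 0.018 and 0.0088 in the 3 comparisons. The comparison of the controls and that of the knockdown share the scrambled siRNA library.

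**Figure D4:**
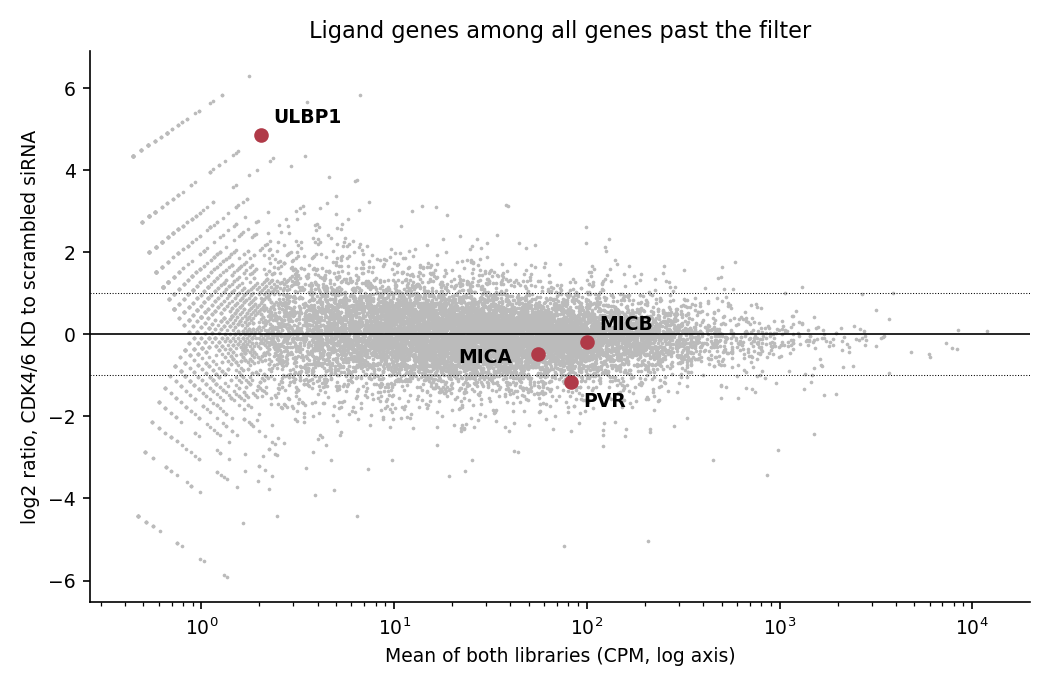
The log2 ratio of CDK4/6 KD to scrambled siRNA (vertical axis) against the mean level of both libraries (horizontal axis, CPM, log scale) for the genes past the filter in grey, with the ligand genes in red and dotted lines at 2-fold. ULBP1 lies at 4.86 among weakly read genes, and PVR lies at -1.16.

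Setting the arms side by side, the ratio in the knockdown arm divided by that in the inhibitor arm was 0.411 for PVR (exact conditional interval 0.355 to 0.476). It was 0.687 for MICA (0.554 to 0.851) and 1.35 for MICB (1.15 to 1.59). Against each arm's own control and past counting error, PVR and MICA were thus relatively lower in the knockdown arm and MICB in the inhibitor arm. This depended on the control. With the control of the other arm, the log2 ratios in CDK4/6 KD and after PD0332991 were -0.57 and -0.47 for PVR. They were 0.78 and -1.21 for MICA, and 0.66 and -1.49 for MICB. With 1 library per condition the intervals of the ratios between arms leave out variation between cultures.

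None of the other nectins was below its control in CDK4/6 KD past counting error, unlike PVR. NECTIN2, listed under its older symbol PVRL2, had 409 reads with DMSO, 409 with PD0332991, 618 with scrambled siRNA and 662 in CDK4/6 KD. At 44.8, 44.9, 57.8 and 58.5 CPM, it was nearly equal within each arm, with a fold change of 1.01 in CDK4/6 KD (0.906 to 1.13). In CDK4/6 KD the DNAM1 ligands were thus both read, PVR below its control and NECTIN2 level with it. PVRL3 (NECTIN3) was at 60.5, 80.1, 77.8 and 123 CPM, 1.58-fold higher in CDK4/6 KD than its control (1.45 to 1.72). PVRL4 (NECTIN4) was at 18.5, 14.1, 7.48 and 16.4 CPM, 2.19-fold higher in CDK4/6 KD than with scrambled siRNA (1.68 to 2.89) and not above DMSO (fold change: 0.889, interval 0.717 to 1.10). PVRL1 (NECTIN1) had 179, 128, 151 and 152 reads. In all, 1 of the 4 other nectins was called higher at 2-fold in CDK4/6 KD, beside 9.19% of all genes. None was called lower, beside 7.62%.

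Of 6 ligands of other NK receptors, 3 were past the filter in CDK4/6 KD. Of these 3, 1 was lower at 2-fold, beside 7.62% of all genes. All 3 had intervals below 1, beside 31.9%, with a median log2 ratio of -0.76. NCR3LG1, which encodes B7-H6, a ligand of the activating receptor NKp30, had 183, 154, 392 and 136 reads (fold change in CDK4/6 KD: 0.329, interval 0.268 to 0.400). BAG6, another NKp30 ligand with intracellular roles, was at 147, 195, 160 and 94.0 CPM (fold change in CDK4/6 KD: 0.589). CLEC2D, which encodes a ligand of the inhibitory receptor CD161, was at 49.5, 49.0, 50.5 and 38.5 CPM (fold change in CDK4/6 KD: 0.763). PDGFD, CD48 and CLEC2B had at most 3 reads in any library. After PD0332991 none of the 3 was called at 2-fold, and the list had a median log2 ratio of -0.01. NCR3LG1, like PVR and MICA, was higher with scrambled siRNA than with DMSO (fold change: 1.83).

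Other surface molecules that NK cells read gave further context. All 4 measured adhesion ligands, out of 5 listed, had intervals below 1 in CDK4/6 KD, beside 31.9% of all genes. Their median log2 ratio was -0.72, and none was past 2-fold. The same 4 had intervals above 1 with scrambled siRNA against DMSO (median 0.58), beside 28.3%. Their median in CDK4/6 KD was -0.09 against DMSO. ICAM1, a ligand of the integrin LFA-1, was at 26.3 CPM against 47.7 with scrambled siRNA (fold change: 0.553). Of 6 measured genes of MHC class I molecules, which engage inhibitory NK receptors, 4 had intervals above 1 in CDK4/6 KD, beside 30.0% of genes. B2M, which encodes their common subunit and is not itself a class I gene, was among these 4 (fold change: 1.21). After PD0332991, 4 of the 6 were above 1, beside 28.1%, and 1 was below. With scrambled siRNA against DMSO, 3 of the 6 were below 1, beside 28.0%, and 1 was above (median -0.24). HLA-E, a ligand of the inhibitory receptor NKG2A, was at 103 CPM with PD0332991 and 58.1 with DMSO (fold change: 1.78). Among 3 measured inhibitory ligands, none was called at 2-fold in CDK4/6 KD and 1 was higher after PD0332991, beside 7.49% of all genes. This was LGALS9, which encodes galectin-9, with 47 reads against 12 (fold change: 3.81). It had 62 reads with scrambled siRNA, 4.29-fold above DMSO, and 35 in CDK4/6 KD (fold change: 0.537). Of 5 death receptor genes, 1 was lower at 2-fold in CDK4/6 KD, beside 7.62% of all genes. It was TNFRSF10A, with 15 reads against 31. TNFRSF10A had 11 reads with DMSO, and scrambled siRNA was 2.35-fold above DMSO.

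Genes that act on the ligand proteins after transcription differed both ways in CDK4/6 KD. Of 6 shedding genes, whose median log2 ratio was 0.07, 2 were lower at 2-fold, beside 7.62% of all genes. By the interval, 3 were above 1, beside 30.0%, and 1 was below 1, beside 31.9%. The latter was ADAM17 (fold change: 0.446, interval 0.376 to 0.526), while TIMP3, an inhibitor of ADAM17, was 1.42-fold higher. Of the 5 subunit genes of GPI transamidase, which attaches the anchor of ULBP1, 2 had intervals below 1, beside 31.9% of all genes. None of the 5 was called at 2-fold. GPAA1, one of these subunits, was at 35.7 CPM against 63.6 with scrambled siRNA (fold change: 0.561).

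Of 11 genes known to act on transcription or processing of NKG2D ligand mRNA, 2 were lower at 2-fold in CDK4/6 KD, beside 7.62%. None was higher, beside 9.19% of all genes. E2F1, a factor released by RB when CDK4 and CDK6 are active, was at 84.3, 9.77, 77.3 and 34.7 CPM with DMSO, PD0332991, scrambled siRNA and CDK4/6 KD. Its fold change was 0.450 in CDK4/6 KD and 0.117 after PD0332991. E2F3 was also lower in CDK4/6 KD (fold change: 0.447). ATF4, a stress factor known to activate ULBP1, was at 579, 1352, 988 and 1340 CPM, higher than its control by 1.36-fold in CDK4/6 KD (1.32 to 1.39) and by 2.34-fold after PD0332991.

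Targets of ATF4 had the highest median ratio in CDK4/6 KD of the lists described here. Of 11 genes past the filter, 6 were higher at 2-fold, beside 9.19% of all genes, and none was lower. By the interval, 10 were above 1, beside 30.0%, and the median log2 ratio was 1.10. ASNS, which encodes asparagine synthetase, was at 381 CPM against 119 with scrambled siRNA (fold change: 3.19), and VLDLR, which encodes a lipoprotein receptor, had 152 reads against 15 (fold change: 9.31). After PD0332991, 4 of 10 targets past the filter were higher at 2-fold, beside 7.49% of all genes. Of the 10, 9 had intervals above 1, beside 28.1%, with a median of 0.94, and ASNS was 5.21-fold higher. The control libraries also differed, with 2 of 10 targets higher at 2-fold with scrambled siRNA than with DMSO, beside 5.30%, and a median of 0.72. With the control of the other arm the medians were 1.81 in CDK4/6 KD and 0.22 after PD0332991.

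Of 7 DNA damage signalling genes, 1 was lower at 2-fold in CDK4/6 KD, beside 7.62% of all genes. This was the kinase gene CHEK1 (fold change: 0.400). After PD0332991, 3 of the 7 were lower at 2-fold, beside 7.06%, and 1 was higher, beside 7.49%, with a median of -0.72. Of 6 heat shock genes, 5 had intervals below 1 in CDK4/6 KD (median -0.24), beside 31.9% of all genes. After PD0332991 all 6 had intervals below 1 (median -0.72), beside 28.6%, and none was past 2-fold in either arm. HSF1, a factor that binds heat shock elements such as those of the MICA and MICB windows, was at 54.8, 59.2, 70.5 and 45.2 CPM and was named after its values were seen. Of the interferon-stimulated genes, 1 of 9 in CDK4/6 KD and 1 of 10 after PD0332991 were higher at 2-fold and none was lower. The shares of all genes higher at 2-fold were 9.19% and 7.49%, so nothing is read from these counts.

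**Figure D5:**
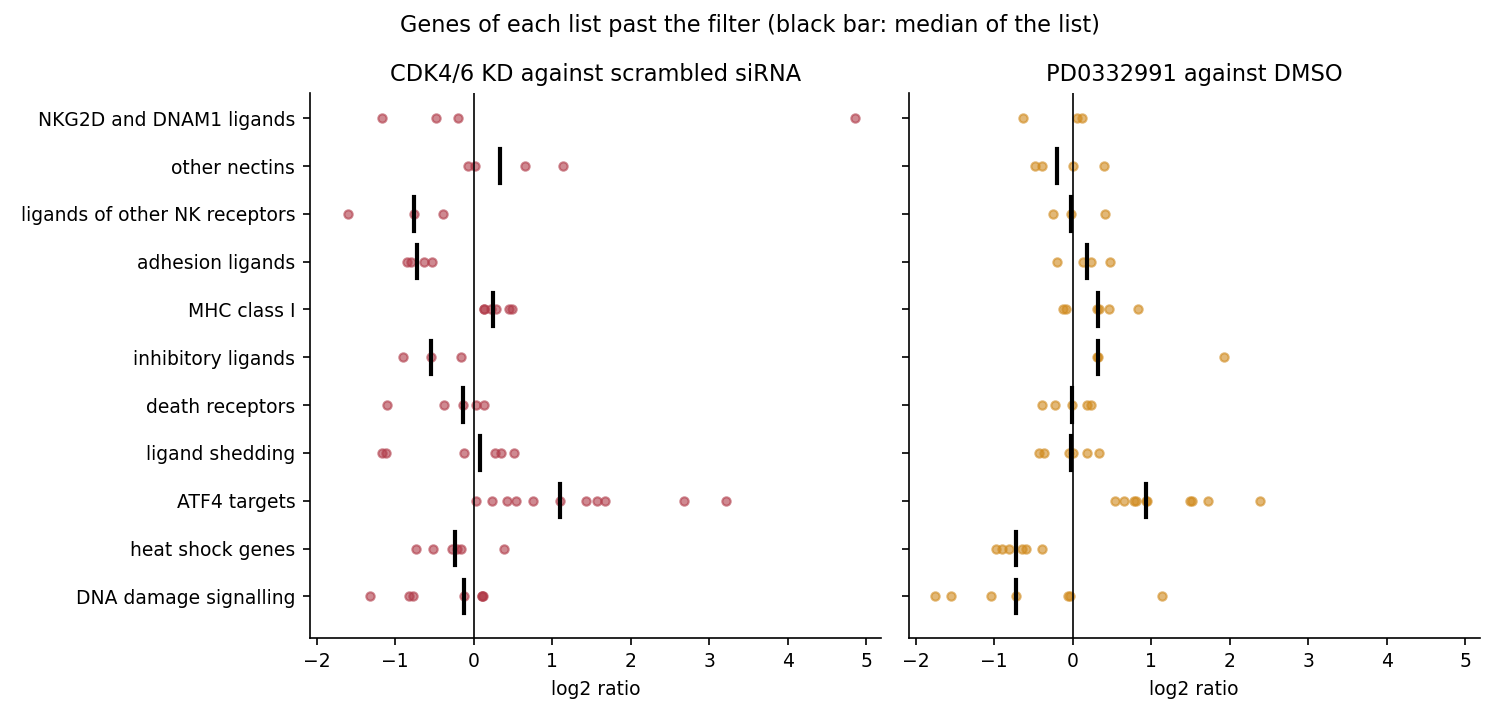
The log2 ratio of each gene past the filter (points) in CDK4/6 KD against scrambled siRNA (left) and PD0332991 against DMSO (right), by gene list, with a black bar at the median of each list except the ligand genes. Targets of ATF4 lie to the right of 0 in both panels with medians of 1.10 and 0.94, and the ligand genes spread from PVR at -1.16 to ULBP1 at 4.86 in CDK4/6 KD.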

How the data were processed

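Total RNA of HepG2 cells was sequenced by the authors as QuantSeq 3′ mRNA libraries, 1 per condition. The files deposited by the authors hold raw counts of reads for each gene symbol, not normalized, and the submitters' processing notes name Bowtie2, edgeR and hg19 without versions. Each table held 25737 entries. For 286 repeated symbols the entries were added up, among them 5 entries of MICA and 8 of MICB, of which 1 each had reads. Library sizes were corrected with TMM (edgeR 4.0.16, R 4.3.3). Ratios used a pseudocount of 0.5 reads, a filter of 10 reads in at least 1 of the compared libraries, a floor of 3 reads and exact Clopper-Pearson intervals at 95% (scipy 1.17.1). Intervals cover counting error only and treat each read as an independent count. PCR copies were not told apart, so the intervals may be too narrow even for counting error. No test was possible with 1 library per condition. The members, the gene lists, the motifs and the rules were chosen with earlier results of these data known. Named genes were the members, related ligands, ATF4, E2F1, CDK4, CDK6, at most 3 genes per other list by the interval end nearest to 1, and up to 3 genes most like each of ULBP1, MICB and PVR within 4-fold of its mean level. Promoters came from RefSeq on GRCh38.p14 and transcripts from GENCODE 29, and no coordinates of hg19 were used. Some items that these rules or lists take in are not reported here. The procedure was run on simulated counts that held counting error only, so the run cannot speak to variation between cultures. Alternatives used DESeq2 1.42.0 and limma 3.58.1.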

Additional observations from a re-analysis of the deposited data

Results flagged for a closer look

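MICA and PVR were lower in the knockdown arm and near their control in the inhibitor arm, with log2 ratios of opposite sign. MICA had a log2 ratio of -0.48 in CDK4/6 KD against scrambled siRNA and of 0.057 after PD0332991 against DMSO, the latter with a counting interval that held a ratio of 1. PVR had a log2 ratio of -1.16 in CDK4/6 KD and of 0.12 after PD0332991, again with an interval that held 1. The ratio between the arms left out 1 past counting error, at 0.687 for MICA and 0.411 for PVR. With the control of the other arm, PVR was lower in both arms, at -0.57 in CDK4/6 KD and -0.47 after PD0332991. MICA then changed sign in both, to 0.78 and -1.21. With 1 library per condition, the difference was not tested against variation between cultures.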

How the results depend on the processing

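The choice of control library mattered most. With the control of the other arm, the log2 ratios of MICA and MICB in CDK4/6 KD became 0.78 and 0.66, above 0 in place of below it, and that of PVR -0.57. After PD0332991 they became -1.21 for MICA, -1.49 for MICB and -0.47 for PVR. Ligand genes called at 2-fold then numbered 1 in CDK4/6 KD (ULBP1, in place of 2) and 2 after PD0332991 (MICA and MICB, in place of 0). A filter of 50 reads left 1 in CDK4/6 KD (PVR, since ULBP1 had 45 reads). A threshold of 1.5-fold gave 1 after PD0332991 (MICB) and 3 between the controls (MICA, MICB and PVR, in place of 1). The shares of all genes called with the other control or under these settings were not computed, and nothing is read from these counts. With the other control, 9 of 32 list medians changed sign. In CDK4/6 KD these were inhibitory ligands (0.58), GPI transamidase (0.052), NK and T cell markers (0.38) and keratinocyte markers (1.29). After PD0332991 they were nectins (0.018), adhesion ligands (-0.31), inhibitory ligands (-0.17), ligand regulators (0.035) and NK and T cell markers (-0.52). With the other alternatives, all 50 ligand gene ratios kept their sign and 16 of 333 list medians did not. Among these 16, between the controls, hepatocyte markers changed to -0.0083 with quantile normalization and keratinocyte markers to -0.32 with the 50-read filter. No paired analysis was possible because each condition had 1 library, and no library could be left out. At this depth, ULBP2 and ULBP3 were beyond detection. For ULBP1 with the inhibitor against DMSO, the reads were compatible with any ratio between 0.325 and 10.8, no change among them.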
